A study of Rattus norvegicus with 9 samples.

Results

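Genes for receptors of glutamate, the main excitatory transmitter of the brain, were followed in rat brain tissue after thrombolysis treatment. The 6 genes were taken from the 32623 Ensembl rat genes of the count table by their identifiers, which were paired with the symbols Grin1 (ENSRNOG00000011726), Grin2a (ENSRNOG00000033942), Grin2b (ENSRNOG00000008766), Gria1 (ENSRNOG00000045816), Gria2 (ENSRNOG00000030107) and Grm5 (ENSRNOG00000016429). That pairing was given with the list of 6 genes and could not be checked against a reference used here. The rule that names them uses no measured value, but the list was drawn up with earlier results of these data known. Rats were injected 4.5 h after a modelling procedure, not specified in the labels, and brain tissue was taken 3 days later. The labels name 3 groups of 3 libraries each: saline, rt-PA and Nano-patrol+NIR. rt-PA is recombinant tissue plasminogen activator, which dissolves clots by turning plasminogen into plasmin, but the count columns of that group are named uk, and which agent it received was not resolved. What Nano-patrol and NIR consist of is not in the labels, and the title of the series speaks of thrombolysis with less haemorrhage. The sources used here give no strain, sex, age, brain region or hemisphere. All 3 groups share the modelling procedure, and no group without it was analysed here.

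Glutamate released at a synapse opens AMPA receptors, which carry most of the fast current, and NMDA receptors, which also let calcium in and open only when the membrane is already depolarised. An NMDA receptor needs the obligatory subunit made from Grin1 together with GluN2 subunits, among them those from Grin2a and Grin2b, which set its kinetics and shift in balance during brain development. Grm5 encodes mGluR5, a receptor that signals through a G protein and raises calcium from internal stores. In ischaemic brain, excess glutamate acting through NMDA receptors is a textbook route to neuronal death.

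The promoter windows available here covered 2 of the 6 genes, Grin1 and Grm5, and both are shown. Each run below is the 250 bases before the annotated start in the GRCr8 build, read 5′ to 3′ on the gene's strand, with capitals marking each CG dinucleotide. The Grin1 window lies at chr3:28528755-28529004 on the minus strand, directly upstream of the annotated gene. The Grm5 window lies at chr1:150733503-150733752 on the plus strand. The start it precedes lies 11 kb inside the annotated gene span, so other transcripts of Grm5 start elsewhere.
Grin1: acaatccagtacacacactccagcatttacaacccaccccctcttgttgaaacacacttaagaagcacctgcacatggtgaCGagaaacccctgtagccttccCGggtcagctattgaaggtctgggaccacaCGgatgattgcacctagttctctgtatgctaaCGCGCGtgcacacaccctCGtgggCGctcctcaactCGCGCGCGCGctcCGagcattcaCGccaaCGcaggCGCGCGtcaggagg
Grm5: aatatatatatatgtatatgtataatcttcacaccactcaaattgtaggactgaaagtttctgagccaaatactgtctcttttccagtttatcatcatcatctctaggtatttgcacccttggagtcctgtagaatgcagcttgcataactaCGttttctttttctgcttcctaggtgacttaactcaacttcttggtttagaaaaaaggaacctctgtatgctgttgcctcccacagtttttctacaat
The Grin1 window held 19 CG dinucleotides, more than 81.6% of the 33469 promoter windows of this length, and was 57.6% G or C. The Grm5 window held 1 CG, and 7.83% of windows held fewer. On both strands the GC box (GGGCGG, in 30.5% of all windows) and the TATA box (TATAAA, in 12.9%) had 0 matches in either gene. The half-site of the cyclic AMP response element (TGACG, in 18.2% of windows) had 2 matches in Grin1 and 0 in Grm5. These are descriptions of letters in a window; no binding or methylation was measured.

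Library totals ran from 13059048 to 14992109 counts, and 15402 genes had enough counts to be tested. Values are CPM, read counts divided by library size, where TMM scaling has corrected that size for composition. CPM is not divided by transcript length, so levels are compared between groups and not between genes. In earlier results of these data saline 1, rt-PA 3 and Nano-patrol+NIR 3 lay apart from the other libraries of their groups across all genes, and the main changes without them are given beside the results. The labels tie no library to an animal of its own, so the spread behind each p-value may be technical. In tissue samples such as these, fewer cells of a type and less RNA per cell cannot be told apart.

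**Figure D1:**
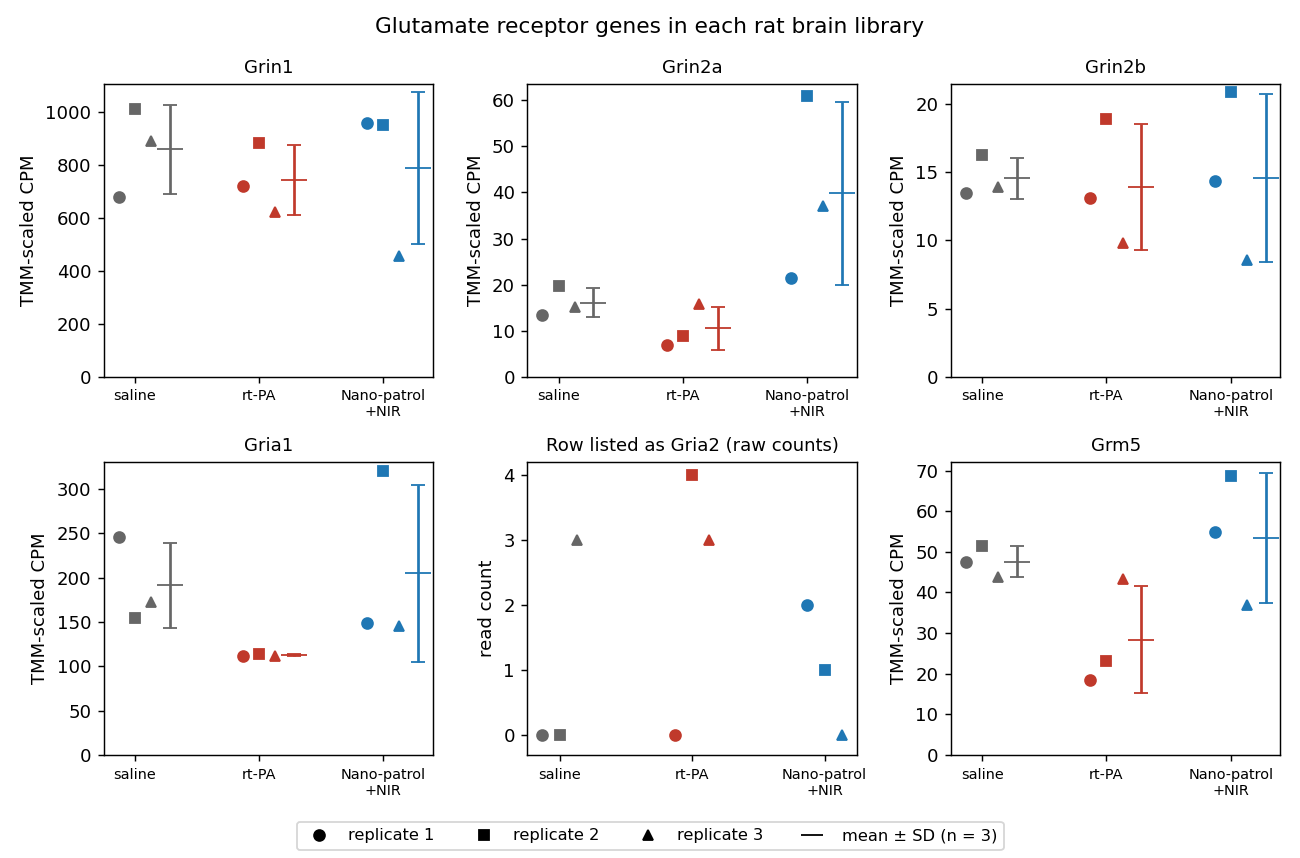
Level of each receptor gene in the 9 libraries, as TMM-scaled CPM by treatment, with the mean and SD of each group (n = 3); the row listed as Gria2 is shown as raw counts. Gria1 lies at 112 to 114 CPM in the rt-PA libraries, below all others, and Grin2a is highest in the Nano-patrol+NIR libraries.

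Of the NMDA receptor genes, Grin1 had similar group means. Grin1 measured 678, 1010 and 888 CPM in saline 1, 2 and 3. In rt-PA 1, 2 and 3 it measured 721, 883 and 620 CPM. In Nano-patrol+NIR 1, 2 and 3 it measured 957, 950 and 455 CPM. The groups overlapped, and the lowest value of all came from Nano-patrol+NIR 3. Grin1 averaged 857 ± 166 CPM in saline, 741 ± 133 CPM in rt-PA and 787 ± 287 CPM in Nano-patrol+NIR (SD, n = 3 each). On the log2 scale Grin1 differed by -0.21 for rt-PA against saline (95% interval -0.92 to 0.50), while Nano-patrol+NIR differed from saline by -0.12 (-0.83 to 0.59). The edgeR adjusted p-values were 0.768 and 1. Both intervals allow a change in either direction, so equal Grin1 expression was not shown.

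Grin2b, the subunit gene that prevails in the forebrain early in life, also overlapped between groups. It measured 13.5, 16.3 and 13.9 CPM in saline 1, 2 and 3. The rt-PA libraries held 13.1, 18.9 and 9.81 CPM. The Nano-patrol+NIR libraries held 14.4, 20.9 and 8.56 CPM. Replicate 2 was highest in all 3 groups, saline included, and replicate 3 was lowest in each treated group. Its means were 14.6 ± 1.48 CPM in saline, 13.9 ± 4.59 CPM in rt-PA and 14.6 ± 6.15 CPM in Nano-patrol+NIR (SD, n = 3 each). The log2 fold change of Grin2b was -0.06 for rt-PA against saline (95% interval -0.85 to 0.72), 0.00 for Nano-patrol+NIR against saline (-0.78 to 0.79) and 0.07 for Nano-patrol+NIR against rt-PA (-0.72 to 0.85).

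Grin2a, whose subunit is added as synapses mature, averaged highest in the Nano-patrol+NIR group. Grin2a measured 13.4, 19.6 and 15.2 CPM in saline 1, 2 and 3. It measured 6.95, 8.76 and 15.8 CPM in rt-PA 1, 2 and 3. It measured 21.5, 60.9 and 37 CPM in Nano-patrol+NIR 1, 2 and 3. Each Nano-patrol+NIR library lay above each saline and each rt-PA library, although Nano-patrol+NIR 1 stood only a little above saline 2. Of the rt-PA libraries, 1 and 2 lay below all saline values and rt-PA 3 lay among them. Raw counts were 90 to 803 per library. The means were 16.1 ± 3.2 CPM in saline, 10.5 ± 4.67 CPM in rt-PA and 39.8 ± 19.9 CPM in Nano-patrol+NIR (SD, n = 3 each).

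For Nano-patrol+NIR against saline, Grin2a had a log2 fold change of 1.31 (SE 0.42, 95% interval 0.35 to 2.26), or 2.47-fold, and 4.25% of tested genes differed by more in that contrast. The unadjusted p of 0.0129 gave an edgeR adjusted p of 0.739 over all tested genes, which did not pass the threshold of 0.05. Against rt-PA the log2 difference of Grin2a was 1.92 (SE 0.43, 95% interval 0.95 to 2.89), or 3.78-fold, the largest of the 15 differences measured in these genes. Its edgeR adjusted p was 0.18 (unadjusted 0.00165), while DESeq2 gave an adjusted p of 0.00212 with a log2 difference of 1.90 and limma-voom one of 0.258. In that comparison DESeq2 called 627 of 15402 tested genes. Without rt-PA 3 the Grin2a difference was 2.30 with an edgeR adjusted p of 0.0145, in a setting where 2047 of 15672 tested genes passed. Without Nano-patrol+NIR 2, the highest library, the log2 difference of Grin2a was 1.46 against rt-PA (edgeR adjusted p = 0.5) and 0.87 against saline. Over the 18 alternatives the edgeR, DESeq2 or limma-voom adjusted p of Grin2a against rt-PA ran from 0.00212 to 0.574, and it passed in 3. These 3 were DESeq2, the fit without rt-PA 3 and the fit without the 3 libraries lying apart, where 6195 of 15309 genes passed. For rt-PA against saline Grin2a differed by -0.61 (SE 0.42, edgeR adjusted p = 0.488). That difference was -1.01 without rt-PA 3 (edgeR adjusted p = 0.149), -0.37 without rt-PA 1 (0.788) and -1.10 without the 3 libraries lying apart (0.158).

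Of the AMPA receptor genes, Gria1 was lowest in the rt-PA group. Gria1, which encodes a subunit inserted at synapses during potentiation, measured 246, 155 and 173 CPM in saline 1, 2 and 3. It measured 112, 114 and 112 CPM in rt-PA 1, 2 and 3. It measured 149, 320 and 146 CPM in Nano-patrol+NIR 1, 2 and 3. The rt-PA libraries were close to each other and below every other library. In the other groups 1 library each, saline 1 and Nano-patrol+NIR 2, was well above the rest. Means were 191 ± 48.2 CPM in saline, 113 ± 1.21 CPM in rt-PA and 205 ± 99.7 CPM in Nano-patrol+NIR (SD, n = 3 each).

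The log2 fold change of Gria1 for rt-PA against saline was -0.77 (SE 0.32, 95% interval -1.49 to -0.04), a 1.70-fold lower level. The unadjusted p was 0.0415 and the edgeR adjusted p 0.273. The log2 difference of Gria1 was -0.51 without saline 1 (edgeR adjusted p = 0.419) and -0.49 without the 3 libraries lying apart (0.3). Nano-patrol+NIR exceeded rt-PA in Gria1 by 0.87 on the log2 scale (SE 0.32, edgeR adjusted p = 0.294), which was 0.37 without Nano-patrol+NIR 2. Without the 3 libraries lying apart that difference was 1.02 (edgeR adjusted p = 0.0663). Against saline the Nano-patrol+NIR difference was 0.10 (SE 0.32, 95% interval -0.62 to 0.82), and it was -0.38 without Nano-patrol+NIR 2 and 0.52 without the 3 libraries lying apart. In the 18 alternatives Gria1 never passed the threshold in any comparison (adjusted p of 0.0663 or more).

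The row given for Gria2 was nearly empty. It held 0, 0 and 3 counts in saline 1, 2 and 3, then 0, 4 and 3 in rt-PA and 2, 1 and 0 in Nano-patrol+NIR, 13 counts in all. It was at 0 in 4 libraries, where a count of 0 allows up to 0.204 to 0.232 CPM (3 counts), for counting error only. This goes against what is known of Gria2, whose subunit makes AMPA receptors nearly impermeable to calcium and which is among the well expressed genes of rodent brain. Whether this row stands for Gria2, and whether the counting reached that gene, was not tested. The row failed the filter on low counts, was compared in no group, and says nothing here about Gria2 expression.

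Grm5 had its lowest values in 2 of the 3 rt-PA libraries. Grm5 measured 47.5, 51.4 and 43.8 CPM in saline 1, 2 and 3. It measured 18.5, 23.2 and 43.4 CPM in rt-PA 1, 2 and 3. It measured 54.8, 68.7 and 36.8 CPM in Nano-patrol+NIR 1, 2 and 3. All rt-PA libraries were below all saline libraries, but rt-PA 3 by only a small margin, and rt-PA 3 was above Nano-patrol+NIR 3. The margin rested on TMM scaling, as rt-PA 3 held 624 of 13749835 counts and saline 3 held 616 of 14992109. Means were 47.6 ± 3.8 CPM in saline, 28.4 ± 13.3 CPM in rt-PA and 53.4 ± 16 CPM in Nano-patrol+NIR (SD, n = 3 each).

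For rt-PA against saline the log2 fold change of Grm5 was -0.74 (SE 0.33, 95% interval -1.51 to 0.02), with an edgeR adjusted p of 0.304. Without rt-PA 3 it was -1.16 with an edgeR adjusted p of 0.025, when 2112 of 15672 tested genes passed. For Nano-patrol+NIR against rt-PA the log2 difference of Grm5 was 0.91 (SE 0.34, edgeR adjusted p = 0.291). Without rt-PA 3 that difference was 1.32 (edgeR adjusted p = 0.0163), when 2047 of 15672 tested genes passed. Without the 3 libraries lying apart it was 1.52 (edgeR adjusted p = 0.000118), when 6195 of 15309 passed. Nano-patrol+NIR and saline differed in Grm5 by 0.17 (SE 0.33, 95% interval -0.59 to 0.92). The adjusted p of Grm5 against saline in the rt-PA group ranged from 0.000492 to 0.611 over the 18 alternatives. It passed in the 2 that left out rt-PA 3. In the fit without all 3 libraries lying apart Grm5 differed by -1.14, and 6710 of 15309 tested genes passed.

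**Figure D2:**
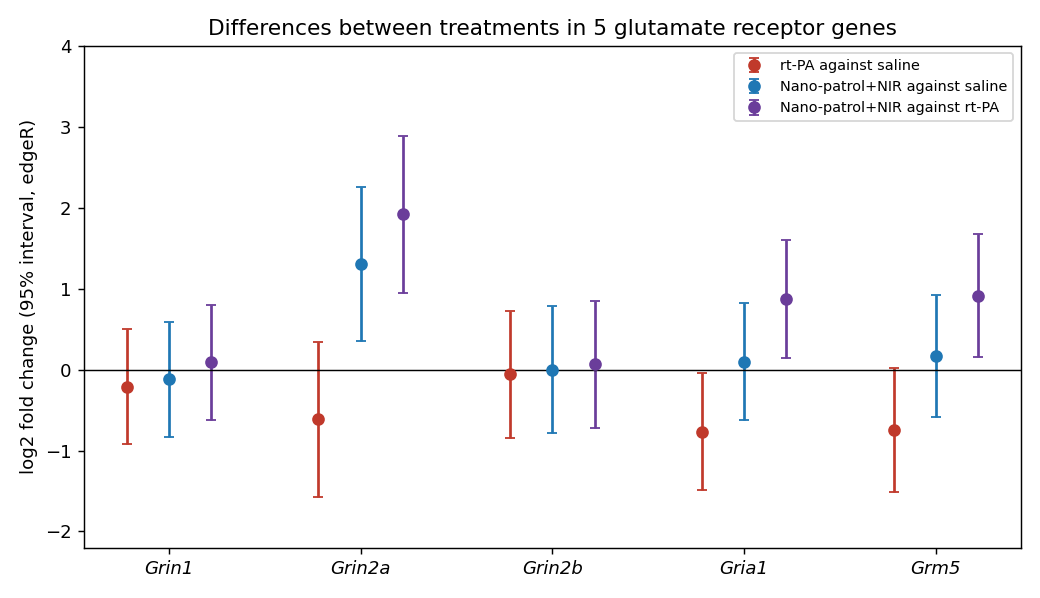
Log2 fold change of the 5 tested receptor genes in the 3 comparisons, with 95% intervals from edgeR. The intervals of Grin1 and Grin2b span 0 throughout, and the interval of Grin2a for Nano-patrol+NIR against rt-PA runs from 0.95 to 2.89.

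Taking the members by comparison, 5 of the 6 were tested and none passed the edgeR threshold, a count of 0 in each comparison. For rt-PA against saline 0.00649% of all tested genes passed, and 1 member (Gria1) was lower at an unadjusted p under 0.05, against 7.97% of all genes. All 5 were lower in rt-PA, as were 50.9% of all genes, with a median log2 fold change of -0.61 beside -0.009 over all tested genes. The groups did not overlap for 2 of them, Gria1 and Grm5, both lower, against 10.3% of all genes. For Grm5 this rested on TMM scaling, as rt-PA 3 held more Grm5 counts than saline 3 in a smaller library. For Nano-patrol+NIR against saline 0.00649% of genes passed, and 1 member (Grin2a) was higher at an unadjusted p under 0.05, against 3.44% of genes. Of the 5, 4 had a log2 fold change above 0 (for Grin2b it rounds to 0.00), as did 48.1% of genes. The median log2 fold change of the 5 was 0.10 beside -0.013, and Grin2a was the 1 member without overlap, against 7.62% of genes that were higher without overlap. Between the treated groups 0% of genes passed, and 3 members (Grin2a, Gria1 and Grm5) were higher in Nano-patrol+NIR at an unadjusted p under 0.05, against 5.91% of genes. All 5 members were higher in that direction, as were 52.2% of genes, with a median of 0.87 beside 0.023, and Grin2a and Gria1 did not overlap, against 8.89% of genes. The comparisons share libraries in pairs, so these counts are not independent of each other, and they were given no test over the members. In the test for any difference among the 3 groups 0.00649% of genes passed with edgeR, and the members' adjusted p-values were 0.149 for Grin2a, 0.349 for Gria1, 0.359 for Grm5, 0.926 for Grin1 and 0.992 for Grin2b.

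**Figure D3:**
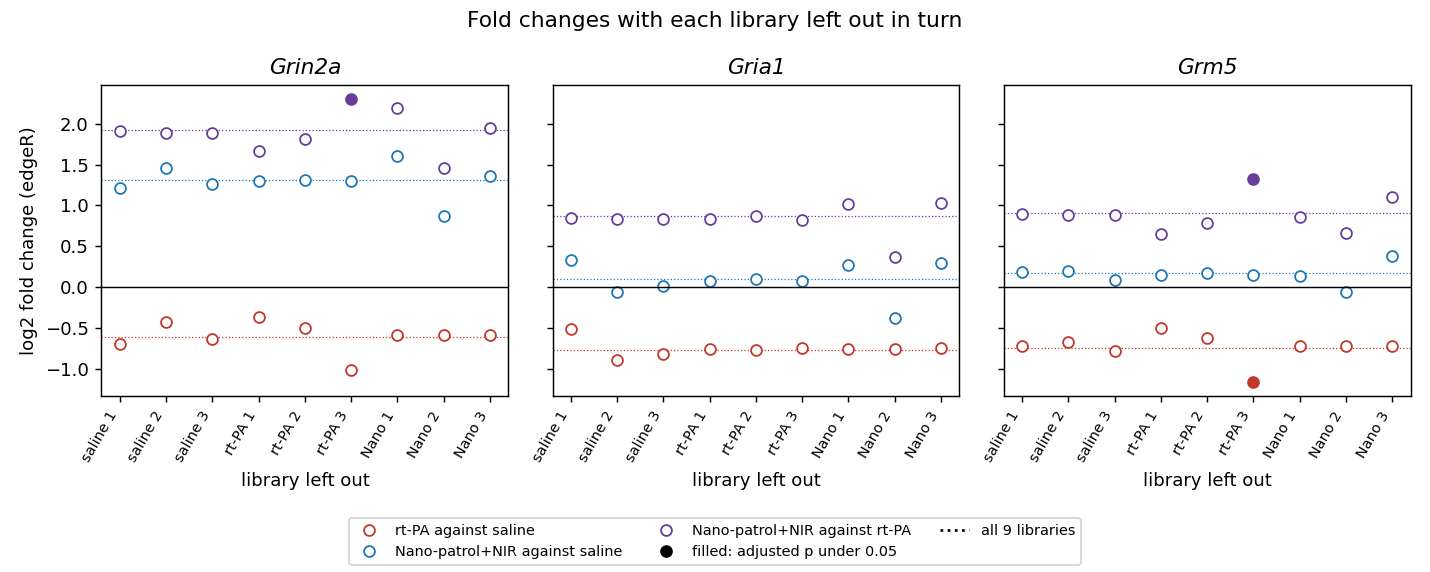
Log2 fold change of Grin2a, Gria1 and Grm5 in each comparison when 1 library is left out, named on the horizontal axis (Nano stands for Nano-patrol+NIR); dotted lines give the value with all 9 libraries and filled points an edgeR adjusted p under 0.05. The 3 filled points, 1 for Grin2a and 2 for Grm5, all come without rt-PA 3.

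Ratios of a pair of receptor genes within a library do not depend on how the library was scaled. The ratio of Grin2b to Grin2a counts was 1.01, 0.828 and 0.916 in saline 1, 2 and 3. It was 1.88, 2.15 and 0.622 in rt-PA 1, 2 and 3, and 0.671, 0.343 and 0.232 in Nano-patrol+NIR 1, 2 and 3. Each Nano-patrol+NIR library had a lower ratio than each saline library, and rt-PA 1 and 2 had the highest ratios, while rt-PA 3 fell among the Nano-patrol+NIR values. On the log2 scale the ratio averaged -0.13 ± 0.14 in saline, 0.44 ± 0.98 in rt-PA and -1.41 ± 0.77 in Nano-patrol+NIR (SD, n = 3 each). An exact permutation test over all 280 splits into 3 groups gave p = 0.0393 for any group difference, and an adjusted p of 0.157 over the 4 planned ratios. The difference of Nano-patrol+NIR from saline was -1.28 (two-sided exact permutation p = 0.1, the smallest that 3 against 3 can give), and it stayed between -1.70 and -0.93 with 1 library left out. The treated groups differed by -1.85 and overlapped (exact permutation p = 0.2), a difference of -2.42 without rt-PA 3. The difference of rt-PA from saline was 0.58 (exact permutation p = 0.4), and it was 1.14 without rt-PA 3, 0.34 without rt-PA 1 and 0.24 without rt-PA 2.

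The ratio of Gria1 to Grin1 counts did not separate the groups. Its log2 mean was -2.17 ± 0.64 in saline, -2.70 ± 0.25 in rt-PA and -1.96 ± 0.62 in Nano-patrol+NIR (SD, n = 3 each), with an exact permutation p of 0.321 for any difference. For rt-PA against saline the log2 difference of that ratio was -0.53, and -0.18 without saline 1. The ratio of Grm5 to Grin1 averaged -4.15 ± 0.28 in saline, -4.79 ± 0.83 in rt-PA and -3.85 ± 0.25 in Nano-patrol+NIR on the log2 scale (SD, n = 3 each; exact permutation p = 0.121). In linear terms Grm5 counts were 0.0256 and 0.0263 of Grin1 counts in rt-PA 1 and 2, and 0.0493 to 0.081 in the other libraries, rt-PA 3 included. The log2 difference of rt-PA from saline in that ratio was -0.63, and -1.11 without rt-PA 3. A ratio of 2 counts depends on the lengths of both transcripts, so only its differences between libraries are read here.

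**Figure D4:**
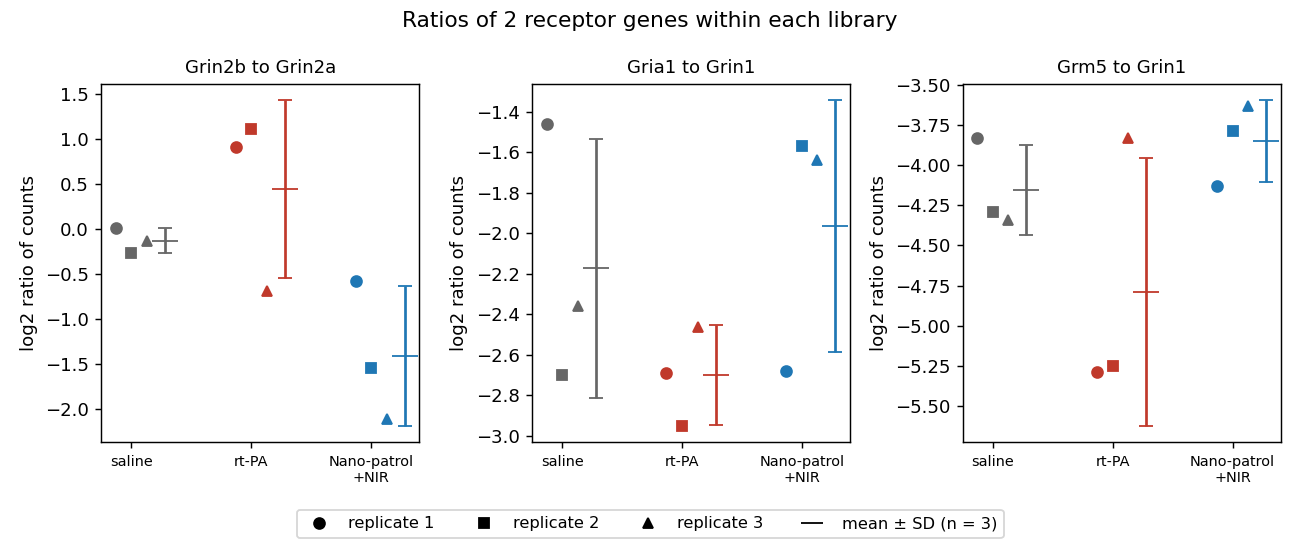
Log2 ratio of the counts of 2 receptor genes in each library, by treatment, with the mean and SD of each group (n = 3). For Grin2b to Grin2a the 3 Nano-patrol+NIR libraries lie at -0.58 or lower, below all saline libraries, and rt-PA 3 lies at -0.69, away from rt-PA 1 and 2.

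How alike the receptor genes were across libraries changed in some pairs when the 3 libraries lying apart were left out. No other set of 3 was left out for comparison. Over all 9 libraries the Pearson r of log2 CPM ran from -0.04 to 0.87 in the 10 pairs of tested members, and over the other 6 libraries from 0.35 to 0.95. Grin1 and Grin2b varied together over all 9 (r = 0.87, Spearman rho 0.80), and 1.4% of tested genes were more like Grin1 than Grin2b was. The r was 0.58 without the 2 libraries farthest from the Grin1 median and 0.49 over the 6 libraries. Grin2a followed Grm5 (r = 0.77, rho 0.68), with 0.96 without the 2 farthest libraries and 1.62% of tested genes more like Grin2a. Gria1 followed Grm5 with r = 0.71 (rho 0.80). Grin2a and Gria1 had an r of 0.65 over 9 libraries, with 6.56% of tested genes more like Grin2a, and 0.95 over the 6. Grin1 and Grin2a had an r of -0.04 over 9 libraries, with 51.3% of tested genes more like Grin1, and 0.69 over the 6. The share of all genes as alike over the 6 libraries was not computed, so those values cannot be called unusual. These are descriptions over libraries that share groups and treatments, with no test. The genes most like the mean profile of the 5 tested members, among 11856 others averaging at least 5 CPM, were ENSRNOG00000017060 (r = 0.943) and ENSRNOG00000000438 (r = 0.94), which the files do not pair with symbols.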

How the data were processed

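Poly(A)-selected RNA from rat brain tissue was sequenced, per the labels' protocols. The authors deposited whole-number read counts per Ensembl gene, not normalized. Tools listed in the submitters' processing notes, without roles, are HISAT2, StringTie 1.3.1, Bowtie2 2.2.8 and fastp 0.18.0. How reads were counted, with which strand setting, build and annotation, is not stated in the sources used here.

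The tests used edgeR 4.0.16 under R 4.3.3. There filterByExpr kept 15402 of 32623 genes, TMM scaled the totals, and the 9 libraries were fitted together with 6 residual degrees of freedom and robust quasi-likelihood F tests. Benjamini-Hochberg adjustment ran over all tested genes, with a threshold of 0.05. Each SE was derived from the F statistic and the log2 fold change. Ratios had 0.5 added to each count. The 4th planned ratio, Gria2 to Gria1, was not computed, as its first row held 0 to 4 counts. Alternatives were DESeq2 1.42.0, limma-voom (limma 3.58.1), other scalings and filters, the 6 libraries compared, libraries left out and a replicate block. The edgeR fit was also run on simulated counts that held no libraries lying apart. Its outcome is not given here, and it cannot vouch for the fits of these libraries. Deviations from the group mean correlated weakly between same-numbered rt-PA and Nano-patrol+NIR libraries (r of 0.113, 0.254 and 0.278). Of all 9 libraries, 2 were closest to one with their own number. The labels state no pairing, and these values do not establish one.

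The members, the lists and the 3 libraries left out together were chosen with earlier results of these data known. By the rule for named genes, the 6 members and the 2 genes most like them were named. In the reference table, 0 of 47357 genes carry an Ensembl identifier. Lists of further glutamate receptor genes and of brain cell type markers, written as symbols, were not used here, and the tissue was not checked against markers.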

Additional observations from a re-analysis of the deposited data

How the results depend on the processing

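Called genes are listed first for rt-PA and then for Nano-patrol+NIR against saline, next between both treatments and last for any group. With edgeR these were 1, 1, 0 and 1 (at an unadjusted p under 0.05, 2621, 907, 2121 and 2270). DESeq2 called 1062, 132, 627 and 1090, and limma-voom 0, 0, 1 and 0 (2384, 782, 1897 and 1975 at an unadjusted p under 0.05). Without a filter the test of any group called 3. Fits of 6 libraries called 0, 3 and 0 in the pairwise comparisons. Leaving out 1 library gave 0 to 2112, 0 to 35, 0 to 2047 and 1 to 1893, and each highest value came when rt-PA 3 was left out. With the 3 libraries that lie apart left out together the numbers were 6710, 501, 6195 and 6932. The replicate block gave 0, 0, 0 and 1, had 2279, 741, 1865 and 1846 at an unadjusted p under 0.05, and changed no call of a member. Deviations of same-numbered libraries from their group means correlated at r of -0.362 to 0.278, over 0.1 in 5 of 9 pairs. Of the 9 libraries, 2 were closest to one with their own number. With saline the r was over 0.1 for replicate 2 (0.203 with rt-PA, 0.228 with Nano-patrol+NIR) and negative for replicates 1 and 3. This check does not establish a pairing with saline. Between rt-PA and Nano-patrol+NIR all 3 pairs were over 0.1, but weak. The blocked fit joined same-numbered libraries of all 3 groups, saline included, so it was not a paired fit of these 2 groups alone. For Nano-patrol+NIR against rt-PA it gave Grin2a 1.87, Gria1 0.81 and Grm5 0.94 (edgeR adjusted p 0.303, 0.411 and 0.4).

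Grin2a and Grm5 passed the threshold only in alternatives named in the report and in the fit without the 3 libraries. There Grin2a differed by 2.35 (edgeR adjusted p = 0.0182) and Grm5 by 1.52 (0.000118) between Nano-patrol+NIR and rt-PA. In that fit 6195 of 15309 tested genes passed for this comparison, and 6932 passed in the test of any group. Leaving out libraries because they lie apart tends to understate the spread, so the adjusted p-values of that fit may be too small. By how much was not tested. In the test of any group Grin2a had adjusted p of 0.00196 with DESeq2, 0.0225 without rt-PA 3 and 0.0328 without the 3 libraries, and Grm5 0.0306 and 0.000229 in the latter fits. For that test DESeq2 called 1090 of 15402 genes, and the fit without rt-PA 3 called 1893 of 15672. Grin1 and Grin2b changed sign with small values. With 1 library left out Grin1 ran from -0.29 to 0.15 for Nano-patrol+NIR against saline and from -0.11 to 0.33 against rt-PA. Grin2b ran from -0.34 to 0.16 for rt-PA against saline, from -0.35 to 0.28 for Nano-patrol+NIR against saline and from -0.31 to 0.35 against rt-PA. For Nano-patrol+NIR against saline Gria1 ran from -0.38 to 0.33 and Grm5 from -0.06 to 0.38. Without the 3 libraries Grin2b was 0.13 for rt-PA against saline and Grin1 0.02 for Nano-patrol+NIR against saline. Grin2b in the last comparison was -0.09 with limma-voom, 0 without a filter and -0.09 with the replicate block. What causes these sign changes was not tested. The filter on low counts left the row given for Gria2 out of the comparisons, and why that row was nearly empty was not tested. How depth limits the other members was not tested.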
